A study of Mus musculus with 5 samples.

Results

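The 35 genes described here belong to the sterol regulatory element-binding protein (SREBP) pathway of lipid synthesis. They comprise 19 enzymes of sterol synthesis, 10 genes of fatty acid synthesis and 6 genes of regulation and transport. They were chosen by name, from their place in the pathway, among the 27729 genes of the expression tables, and each symbol was matched to its gene identifier. Earlier results of these data were known when they were chosen. RNA was measured in bulk in mouse embryonic fibroblasts (MEFs) of the ICR strain before the change of medium (day 0, with fetal bovine serum) and on days 2, 5, 10 and 14 of culture in serum-free 5C medium, in 1 library per day. 5C medium is DMEM/F12 with the supplement N2, vitamin C, 2-mercaptoethanol, leukemia inhibitory factor and basic fibroblast growth factor, and the study used it to turn MEFs into neuron-like cells without transgenes; the labels name the medium 6C. The labels give 5000 cells per well and day 14 for the last library, although the treatment text gives day 15. MEFs are a mixed primary population. The study's methods describe a short trypsin step and rinses before plating, which took off loosely attached cells that could be neurogenic, and they describe no marker-based sort for these libraries, so fewer cells of a type and less RNA per cell cannot be told apart in any value below. The question put to the data was whether the sterol branch and the fatty acid branch of the pathway followed the same course over the conversion.

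SREBPs are transcription factors made as precursors in the membrane of the endoplasmic reticulum. When membrane sterol is low, the escort protein Scap carries them to the Golgi, where proteases release the part that enters the nucleus, and Insig proteins hold Scap back when sterol is high. Srebf2 encodes SREBP-2, which is best known for the genes of cholesterol synthesis, and Srebf1 encodes SREBP-1a and SREBP-1c, which are best known for the genes of fatty acid synthesis. Insulin and liver X receptors raise SREBP-1c in liver. Both branches start from cytosolic acetyl-CoA, and both need NADPH. At their promoters SREBPs bind sterol regulatory elements (SREs) and act together with the factors NF-Y, which binds CCAAT boxes, and Sp1, which binds GC boxes.

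Upstream sequences of 28 of the 35 genes were found in RefSeq (GRCm38.p6), and the 250 bases before each start site were searched on both strands. No entry was matched for Fads1, Fdps, Fdft1, Scd1, Scd2, Sqle and Stard4. The CCAAT box, spelled CCAAT, was present in 15 of 16 sterol enzymes (93.8%), in 3 of 7 fatty acid genes (42.9%) and in 3 of 5 genes of regulation and transport, against 40.7% of all 10257 tested genes with a promoter. The GC box, spelled GGGCGG, was present in 14 of 16 sterol enzymes (87.5%) and in 4 of 7 fatty acid genes (57.1%), against 64.0% of all tested genes with a promoter. The classic SRE, spelled TCACNCCAC, was present in Hmgcs1 alone among the 28, against 1.28% of all tested genes with a promoter. The E-box CACGTG was present in 5 of the 28 (Hsd17b7, Sc5d, Dhcr7, Scap and Insig1), against 9.96%. None of the 4 motifs contains another, and a match describes the letters and is no evidence of binding. The promoters of 4 genes are printed 5′ to 3′ on the strand of the gene, ending 1 base before the start site, with matches to the SRE, CCAAT and GC box on either strand in capitals. Hmgcs1 (chr13:119690101-119690350, plus strand) is shown as the member with an SRE, whose first base lies 137 bases upstream of the start, and Mvk (chr5:114444019-114444268, plus strand) as a sterol enzyme with 5 CCAAT boxes and no SRE. Fasn (chr11:120824548-120824797, minus strand) and Acly (chr11:100528001-100528250, minus strand) are shown as fatty acid genes that differ from each other, with 3 CCAAT boxes and no GC box in Fasn and 4 GC boxes and no CCAAT box in Acly.
Hmgcs1: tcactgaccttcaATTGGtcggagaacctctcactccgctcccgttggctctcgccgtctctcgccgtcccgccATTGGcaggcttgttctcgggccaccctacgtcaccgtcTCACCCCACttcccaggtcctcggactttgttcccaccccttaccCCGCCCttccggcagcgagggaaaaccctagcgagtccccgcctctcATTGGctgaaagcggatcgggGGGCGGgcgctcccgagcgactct
Mvk: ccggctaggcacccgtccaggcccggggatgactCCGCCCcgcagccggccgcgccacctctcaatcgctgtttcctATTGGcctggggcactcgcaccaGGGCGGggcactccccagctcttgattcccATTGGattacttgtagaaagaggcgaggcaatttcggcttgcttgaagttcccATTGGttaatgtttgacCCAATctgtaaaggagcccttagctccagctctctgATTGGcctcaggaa
Fasn: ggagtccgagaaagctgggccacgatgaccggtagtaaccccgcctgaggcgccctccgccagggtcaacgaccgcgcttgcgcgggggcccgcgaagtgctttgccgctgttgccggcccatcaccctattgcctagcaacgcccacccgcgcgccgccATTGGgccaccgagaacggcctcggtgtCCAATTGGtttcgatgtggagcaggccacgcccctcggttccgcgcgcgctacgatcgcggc
Acly: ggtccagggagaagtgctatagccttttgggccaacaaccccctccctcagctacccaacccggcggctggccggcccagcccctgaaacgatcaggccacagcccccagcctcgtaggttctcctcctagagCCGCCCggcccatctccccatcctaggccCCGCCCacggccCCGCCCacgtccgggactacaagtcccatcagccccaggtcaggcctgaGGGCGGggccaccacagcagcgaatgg
In Fasn a pair of CCAAT boxes on opposite strands overlap in the run CCAATTGG.

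The libraries held between 2253748 (day 2) and 3890334 (day 0) expected counts, which are estimates of the reads from each gene, and 3 counts corresponded to between 0.771 and 1.33 counts per 1000000. Values are given as normalized counts, which are expected counts scaled for library size, and changes as log2 ratios against day 0 after 1 was added to each count. All 35 members passed the filter of at least 10 expected counts in any library, as did 13346 genes in all, called tested genes here. With 1 library per day there are no replicates and no test: intervals are exact 95% intervals that cover counting error only, a gene is called higher or lower only past 2-fold, and other genes are given by their values. The median change of all tested genes was -0.03, 0.05, 0.14 and 0.07 on days 2, 5, 10 and 14. The changes also moved with gene length: the decile of the shortest genes, with a median length of 803 bases, had a median change of -1.47 on day 10, and the decile of the longest, with a median of 6729.6 bases, had 1.04. The deposited TPM values, which are divided by gene length, had an all-gene median change of -0.20, 0.61, 1.09 and 0.78, so TPM changes are read against those medians. On day 2 the transcript Gm42418 held 4.79% of the counts, and 0.109% or less in the other libraries.

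The pathway took a larger share of the counts on every day of 5C medium than on day 0. The 35 genes held 0.230% of all counts on day 0 and 0.561%, 0.636%, 1.10% and 0.812% on days 2, 5, 10 and 14. On day 2, 21 of the 35 were over 2-fold higher than on day 0, against 15.2% of all tested genes, and none was over 2-fold lower, against 13.1%. The number over 2-fold higher was 18 on day 5, against 20.2% of all tested genes, 21 on day 10, against 28.7%, and 16 on day 14, against 24.5%. None was over 2-fold lower on days 5, 10 and 14, against 13.6%, 22.3% and 19.9% of all tested genes. The median change of the 35 genes was 1.15, 1.11, 1.30 and 0.92 on days 2, 5, 10 and 14.

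**Figure D1:**
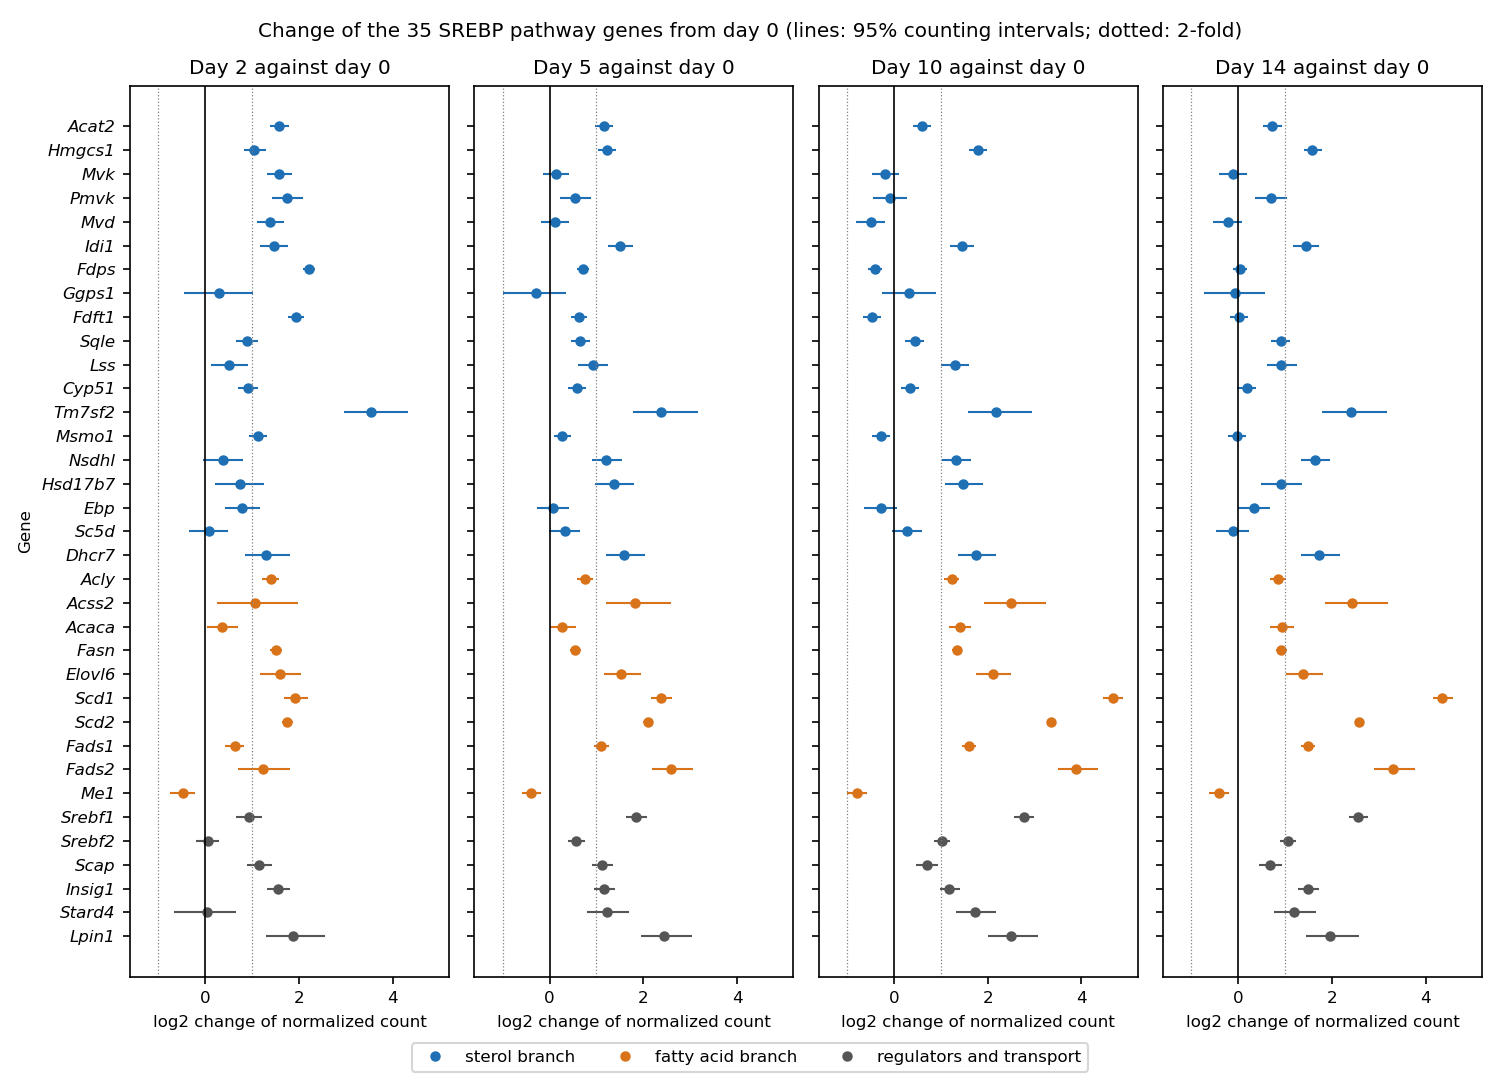
The log2 change of the normalized count of each of the 35 genes (rows) from day 0 to days 2, 5, 10 and 14 (panels), with 95% counting intervals as lines and 2-fold marked by dotted lines. On day 10 the sterol enzymes (blue) lie between -0.48 and 2.18 and the fatty acid genes (orange) between -0.78 and 4.66.

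In normalized counts the sterol branch was highest in sum on day 2, whereas in TPM its sum was 2018 on day 2 and 2067 on day 10. All 19 sterol enzymes lay above their day 0 value on day 2, 11 of them over 2-fold, and their median change was 1.12. The summed normalized counts of the branch were 4100.3, 11563, 6962, 5702 and 6177 on day 0 and days 2, 5, 10 and 14, so the day 2 sum stood 1.50 above day 0 on the log2 scale (95% interval 1.44 to 1.55). The mevalonate and isoprenoid steps, from acetyl-CoA to farnesyl and geranylgeranyl diphosphate, had a median change of 1.51 on day 2 with 7 of 8 genes over 2-fold higher. The steps from squalene onward had a median change of 0.89 with 4 of 11 over 2-fold higher.

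Acat2, which joins acetyl-CoA units at the start of the pathway and has a close copy in Acat3 with which reads could be shared, gave 315, 939.8, 701, 476 and 524 normalized counts on day 0 and days 2, 5, 10 and 14. Hmgcs1, the HMG-CoA synthase whose promoter holds the SRE printed above, gave 280.1, 581, 655, 968 and 843. These genes followed different courses: Acat2 peaked on day 2 at a change of 1.57 (95% interval 1.37 to 1.78), and Hmgcs1 on day 10 at 1.79 (95% interval 1.60 to 1.98). Mvk, mevalonate kinase, whose promoter held 5 CCAAT boxes, gave 189, 563, 208, 167 and 176, and Mvd, the decarboxylase that makes isopentenyl diphosphate, gave 174, 456, 188, 124 and 149. In both, the day 2 library stood alone above the others, with changes of 1.57 and 1.38 on day 2 and of -0.18 and -0.48 on day 10. Pmvk (ENSMUSG00000027952, chr3:89454541-89469013, plus strand), phosphomevalonate kinase, which acts between them, gave 118, 398, 172, 111 and 191. Its change was 1.75 (95% interval 1.43 to 2.09) on day 2, -0.08 (95% interval -0.43 to 0.28) on day 10 and 0.70 (95% interval 0.37 to 1.04) on day 14. Less the median change of genes of like length, the day 10 changes were 0.68 for Mvk, -0.05 for Mvd and 0.78 for Pmvk. Idi1, which interconverts the 5-carbon isoprene units, was over 2-fold higher on all 4 later days and level among them, with 151, 418, 431, 414 and 413 normalized counts.

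Fdps (ENSMUSG00000059743, chr3:89093588-89101959, minus strand), farnesyl diphosphate synthase, gave 694, 3204, 1136, 524 and 717 normalized counts. Its change was 2.21 (95% interval 2.08 to 2.34) on day 2, 0.71 on day 5, -0.40 (95% interval -0.56 to -0.25) on day 10 and 0.05 (95% interval -0.10 to 0.20) on day 14, so its normalized count was back near the day 0 value by day 14. From day 2 to day 10 the difference was -2.61 (95% interval -2.74 to -2.49). Less the median change of genes of like length, the changes of Fdps from day 0 were 0.46 on day 10 and 0.60 on day 14. Fdft1 (ENSMUSG00000021273, chr14:63145150-63179578, minus strand), squalene synthase, which commits farnesyl diphosphate to sterols, gave 418, 1596, 644, 304 and 421, a course of the same shape, with changes of 1.93 (95% interval 1.76 to 2.10) on day 2 and -0.46 (95% interval -0.66 to -0.26) on day 10. Less the median change of genes of like length, that day 10 change was -0.67. Up to 774 exon bases of Fdft1 are shared with Ctsb, a lysosomal protease gene on the opposite strand, which gave 4227, 8805, 11153, 5894 and 4831 normalized counts and was highest on day 5, and reads from the shared bases cannot be told apart without strand. Ggps1, which makes geranylgeranyl diphosphate for protein prenylation and not for sterols, stayed within counting error of day 0 throughout, with 41.2, 50.3, 33.6, 51.7 and 39.4 normalized counts.

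Sqle, squalene epoxidase, a rate-limiting oxygenase of the pathway, gave 296, 551, 468, 403 and 555 normalized counts and was under 2-fold on every day. Lss, lanosterol synthase, which closes the sterol rings, gave 121, 174, 229.9, 299 and 230.3, and Cyp51, lanosterol demethylase, gave 345, 649.7, 518, 438 and 391. Cyp51 peaked on day 2 at 0.91, and Lss on day 10 at 1.30; the TPM change of Lss on day 2 was -0.64, the opposite sign to its count change of 0.52. Tm7sf2 (ENSMUSG00000024799, chr19:6062821-6068373, minus strand), a sterol C14 reductase, showed the largest change of the branch on each day, with 21.8, 264, 118, 102 and 119 normalized counts and changes of 3.54 (95% interval 2.95 to 4.32) on day 2 and 2.40 (95% interval 1.79 to 3.17) on day 14. It was at least 4 times its day 0 value in all 4 later libraries. Up to 532 of its exon bases are shared with Vps51 on the same strand, a gene of vesicle tethering that gave 102, 175, 124, 123 and 134 normalized counts.

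Msmo1, the C4-methyl oxidase, gave 428, 934, 518, 355 and 421 normalized counts, and Ebp, the sterol isomerase, gave 128, 223, 136, 106 and 163. Both were highest on day 2 and had changes of -0.27 and -0.28 on day 10. Less the median change of genes of like length, those day 10 changes were 0.16 for Msmo1 and 1.20 for Ebp. Nsdhl and Hsd17b7, which work with Msmo1 in the removal of the C4 methyl groups, did not follow it. Nsdhl gave 115, 150.2, 268, 289.9 and 358 and peaked on day 14 at 1.63 (95% interval 1.34 to 1.95). Hsd17b7 gave 66.3, 111, 173, 186 and 126 and peaked on day 10 at 1.47 (95% interval 1.09 to 1.90). Sc5d (ENSMUSG00000032018, chr9:42251595-42264256, minus strand), the lathosterol desaturase, had the smallest day 2 change of the branch in normalized counts, with 134, 141, 168, 163 and 124, a change of 0.07 (95% interval -0.35 to 0.48) on day 2 and -0.12 (95% interval -0.47 to 0.24) on day 14, and a TPM change of -0.16 on day 2. Dhcr7, which carries out the last reduction to cholesterol, was over 2-fold higher on all 4 later days, with 64.5, 161, 196, 219 and 216 normalized counts.

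After day 2 the sterol branch divided. Its median change from day 0 was 0.66, 0.35 and 0.70 on days 5, 10 and 14, with 7, 7 and 5 of 19 enzymes over 2-fold higher, against 20.2%, 28.7% and 24.5% of all tested genes. On day 10, 12 of 19 lay above day 0, and 16 of 19 lay above the median change of genes of like length. Of the enzymes, 10 were highest on day 2 (Acat2, Mvk, Pmvk, Mvd, Fdps, Fdft1, Cyp51, Tm7sf2, Msmo1 and Ebp), 2 on day 5 (Idi1 and Sc5d), 5 on day 10 (Hmgcs1, Ggps1, Lss, Hsd17b7 and Dhcr7) and 2 on day 14 (Sqle and Nsdhl). From day 2 to day 10, 8 of 19 were over 2-fold lower, against 22.4% of all tested genes, and none was over 2-fold higher, against 28.9%. The median difference from day 2 to day 10 was -0.57 in normalized counts, against 0.18 for all tested genes, whereas in TPM it was 0.90, against 1.31 for all tested genes. The 7 enzymes below their day 0 count on day 10 (Mvk, Pmvk, Mvd, Fdps, Fdft1, Msmo1 and Ebp) had TPM changes between 0.65 and 1.06, above 0 but below the all-gene TPM median of 1.09. In TPM, 9, 14, 13 and 11 of the 19 were over 2-fold higher than day 0 on days 2, 5, 10 and 14, against 7.9%, 32.0%, 52.9% and 41.6% of all tested genes. The sum of the branch in TPM was 768, 2018, 1993, 2067 and 1896 on day 0 and days 2, 5, 10 and 14. On this scale the days after day 2 lay close to day 2, and day 10 was the highest.

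The day of the highest count, which for some enzymes was within counting error of another day, moved with gene length. The 10 sterol enzymes highest on day 2 had a median length of 1519 bases, and the 5 highest on day 10 had a median of 3233. The 12 sterol enzymes shorter than the median of all tested genes (2525 bases) had median changes of 1.34, 0.43, 0.10 and 0.19 on days 2, 5, 10 and 14, and all shorter genes 0.02, -0.19, -0.50 and -0.29. The 7 longer ones (Hmgcs1, Idi1, Fdft1, Sqle, Lss, Cyp51 and Hsd17b7) had median changes of 0.91, 0.92, 1.30 and 0.92, and all longer genes -0.11, 0.27, 0.65 and 0.38. Fdft1 stood apart among the longer ones, with 2860.0 bases and a fall of over 2-fold from day 2 to day 10. The part of gene length in these courses was not tested. Overlapping genes also touch some of these counts: Fdps shares 197 exon bases with Gm43738 on the same strand, and Hmgcs1, Idi1, Ggps1, Lss, Cyp51, Acss2, Elovl6, Me1 and Scap share 30 to 458 with genes on the opposite strand.

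**Figure D2:**
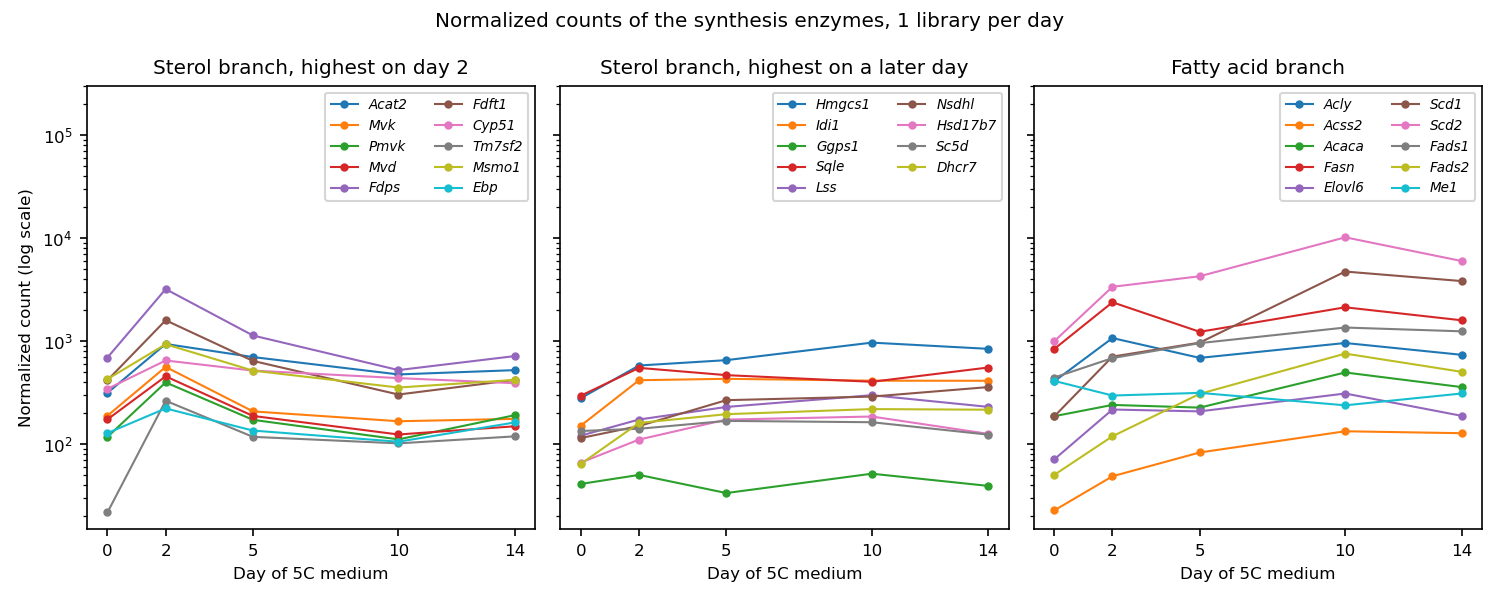
Normalized counts (log scale) by day of 5C medium in 1 library per day, for the 10 sterol enzymes highest on day 2 (left), the 9 other sterol enzymes (middle) and the 10 fatty acid genes (right). Fdps peaks at 3204 on day 2 and Scd2 at 10193 on day 10.

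In normalized counts the fatty acid branch was higher than day 0 from day 2 and highest on day 10. Its median change was 1.31, 1.32, 1.86 and 1.44 on days 2, 5, 10 and 14, with 7, 6, 9 and 6 of 10 genes over 2-fold higher, against 15.2%, 20.2%, 28.7% and 24.5% of all tested genes. None was over 2-fold lower on any of these days, against 13.1%, 13.6%, 22.3% and 19.9%. The summed normalized counts were 3621, 9146, 9259, 21324 and 14903, and the day 10 sum stood 2.56 above day 0 on the log2 scale (95% interval 2.51 to 2.61). Scd2 and Scd1 made up most of the day 10 sum, with 10193 and 4743 normalized counts against 999 and 186 on day 0. The 3 desaturase genes Scd1, Scd2 and Fads2 showed the largest changes on days 5, 10 and 14. Past 4-fold were 0, 3, 5 and 4 of the 10 genes on days 2, 5, 10 and 14 (Scd1, Scd2 and Fads2 from day 5, Acss2 on days 10 and 14 and Elovl6 on day 10), against 5.36%, 8.7%, 13.9% and 11.7% of all tested genes. Of the 19 sterol enzymes, 2, 1, 1 and 1 were past 4-fold, which were Tm7sf2 on each day and Fdps on day 2.

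Acly, ATP citrate lyase, which makes the cytosolic acetyl-CoA that both branches use, gave 408, 1072, 688, 960.5 and 737 normalized counts on day 0 and days 2, 5, 10 and 14. Acss2 (ENSMUSG00000027605, chr2:155517948-155585724, plus strand), which makes acetyl-CoA from acetate, gave 22.8, 48.8, 83.1, 134 and 128 and was higher by 1.07 (95% interval 0.24 to 1.97) on day 2 and 2.44 (95% interval 1.85 to 3.19) on day 14. Acly was highest on day 2 and Acss2 on day 10, and the lower counts of Acss2 left it with the wider interval. Acaca, acetyl-CoA carboxylase, the rate-limiting step of fatty acid synthesis, gave 187, 241, 227, 497 and 358 and passed 2-fold on day 10 alone, with a change of 1.41 (95% interval 1.18 to 1.65). Fasn, fatty acid synthase, gave 840.2, 2386, 1233, 2133 and 1596, with count changes of 1.50, 0.55, 1.34 and 0.92 on days 2, 5, 10 and 14, but its TPM change on day 2 was -0.02. Elovl6, which extends palmitate to stearate, was over 2-fold higher on all 4 later days, with 71.3, 217, 208, 311 and 189 normalized counts.

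Scd1 (ENSMUSG00000037071, chr19:44394455-44407879, minus strand), a stearoyl-CoA desaturase that makes oleate, showed the largest change of the 35 genes on days 10 and 14. It gave 186, 708, 969, 4743 and 3834 normalized counts, with changes of 1.92 (95% interval 1.68 to 2.19) on day 2, 2.37 on day 5, 4.66 (95% interval 4.46 to 4.89) on day 10 and 4.36 (95% interval 4.15 to 4.58) on day 14. Its counts on days 10 and 14 lay far above those of the other days, and the step from day 5 to day 10 was 2.29 (95% interval 2.20 to 2.38). Scd2 (ENSMUSG00000025203, chr19:44293674-44306864, plus strand), a desaturase known from brain, gave 999, 3371, 4269.6, 10193 and 6000.0, with changes of 3.35 (95% interval 3.26 to 3.44) on day 10 and 2.58 (95% interval 2.49 to 2.68) on day 14. Scd1 and Scd2 are neighbours in the genome and close paralogs, so reads that match both could be divided between them by the counting.

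Fads2 (ENSMUSG00000024665, chr19:10062765-10101746, minus strand), the delta-6 desaturase of polyunsaturated fatty acids, gave 50.4, 119, 308, 758 and 504 normalized counts, with changes of 1.23 (95% interval 0.69 to 1.80) on day 2, 3.88 (95% interval 3.50 to 4.34) on day 10 and 3.30 (95% interval 2.91 to 3.76) on day 14. Fads1, the delta-5 desaturase that lies beside it, gave 444, 686, 958, 1357 and 1247 and showed smaller changes on each day, with a change of 1.61 (95% interval 1.46 to 1.76) on day 10. Me1 (ENSMUSG00000032418, chr9:86581371-86695953, minus strand), malic enzyme, which supplies NADPH, was the exception of the branch, with 412, 297, 315, 239 and 311 normalized counts. Its changes were -0.47 (95% interval -0.74 to -0.21) on day 2, -0.78 (95% interval -1.00 to -0.58) on day 10 and -0.41 (95% interval -0.61 to -0.20) on day 14, all under 2-fold. In TPM its changes were -0.72, 0.47, 0.49 and 0.61, below the all-gene TPM median on each day. From day 10 to day 14, 9 of the 10 genes had lower values and Me1 a higher one, none by 2-fold, with a median difference of -0.40. Of all tested genes, 4.73% were over 2-fold higher and 8.33% over 2-fold lower in this interval.

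Of 12 adipocyte markers, 11 were tested, and 3, 6, 10 and 10 were over 2-fold higher on days 2, 5, 10 and 14, against 15.2%, 20.2%, 28.7% and 24.5% of all tested genes. Their median change was 0.10, 1.47, 3.55 and 4.73, and on day 2 Pparg, the master regulator of fat cell formation, was over 2-fold lower at -2.30. Their summed normalized counts were 255, 446, 1130.2, 3600 and 5138 on day 0 and days 2, 5, 10 and 14. On day 0, 6 of the 12 were at 0, and on days 10 and 14 none was. Adipoq, which encodes the hormone adiponectin, and Plin1, a coat protein of lipid droplets, were at 0 on day 0 and gave 236 and 134 normalized counts on day 14. Between days 10 and 14 this sum was higher and the sum of the fatty acid branch was lower. Schwann and neural crest markers had sums of 821, 755, 1785, 8199 and 8324, with 10 of 10 over 2-fold higher on day 10, against 28.7% of all tested genes. Macrophage markers had sums of 306, 2424, 3954, 2169 and 1585, with 13 of 13 over 2-fold higher on day 2, against 15.2%. For Ptprc that call rested on 1 expected count against 0 on day 0, and for Adgre1 on 8 against 3. On days 5, 10 and 14, 12, 11 and 10 were over 2-fold higher, against 20.2%, 28.7% and 24.5%. Itgam was over 2-fold lower on each of those days, at -1.76, -3.01 and -2.94. Of 12 fibroblast markers, which had sums of 74905 to 119484, 4 were over 2-fold higher (Col3a1, Dcn, Pdgfra and Postn) and 4 over 2-fold lower (Pdgfrb, Thy1, S100a4 and Twist2) on day 10. On that day 28.7% of all tested genes were over 2-fold higher and 22.3% lower, so the fibroblast counts lay near those shares. The neuron markers had sums of 336 to 712 with 2 to 5 of 12 at 0 in each library, and their directions were mixed. Of the 7 tested, 3 were over 2-fold higher and 3 over 2-fold lower on day 14, against 24.5% and 19.9% of all tested genes. From day 0 to day 14 Tubb3 changed from 22.1 to 161 normalized counts, Stmn2 from 448 to 163 and Map2 from 196 to 45.6. The proliferation markers had a sum of 384 on day 14 against 1409 to 2160 in the other libraries. The part of each of these cell types in the courses of the pathway genes was not tested.

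In normalized counts and in TPM the branches differed least on day 2 and most on day 10. The sterol median minus the fatty acid median was -0.19, -0.66, -1.51 and -0.74 on days 2, 5, 10 and 14, and on the TPM scale -0.03, -0.57, -1.33 and -0.80. From day 2 to day 10 the median difference was -0.57 for the sterol enzymes and 1.01 for the fatty acid genes, of which 5 of 10 were over 2-fold higher, against 28.9% of all tested genes. Centred on genes of like length, as described next, these medians were -0.58 and 0.10, with 3 of 10 fatty acid genes over 2-fold above, against 22.1% of all tested genes, and 5 of 19 sterol enzymes over 2-fold below, against 18.8%. From day 10 to day 14 the sterol median was the higher, with 0.14 for the sterol enzymes, of which 11 lay above and 8 below 0, and -0.40 for the fatty acid genes. After centring, the fatty acid median was -0.13 in that interval, and the branches differed by 0.13 in place of 0.54. The sign of the difference from day 0 was the same on every scale tried, but its size was not. On day 2 the difference (-0.19, centred -0.21, TPM -0.03) was smaller than the counting error of a typical member. So was the centred difference on day 5 (-0.16), and the sign there gives no order of the branches.

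The branches also differed in gene length, with a median of 2166 bases for the sterol enzymes and 3831 for the fatty acid genes. When each change was centred on the median change of all tested genes in the same length decile, the sterol medians were 1.14, 0.87, 0.67 and 0.59 and the fatty acid medians 1.36, 1.04, 1.11 and 1.02 on days 2, 5, 10 and 14. The difference between the branches was then -0.21, -0.16, -0.43 and -0.43, against -1.51 on day 10 without centring. Among the genes over 2-fold higher, centring ended the call of Acly, Acaca, Fasn, Idi1, Lss and Hsd17b7 on day 10, of Fads1 and Hmgcs1 on day 5 and of Elovl6 on day 14. Among the sterol enzymes it also added calls. These were Cyp51 on day 2 (1.01), Fdps on day 5 (1.08), Pmvk on day 14 (1.25) and Ebp on days 10 (1.20) and 14 (1.38). After centring, 12, 7, 5 and 7 of 19 sterol enzymes were over 2-fold above genes of like length, against 15.9%, 18.6%, 23.8% and 22.3% of all tested genes. For the fatty acid genes these numbers were 7, 5, 6 and 5 of 10, and Me1 on day 10 was over 2-fold below, whereas no sterol enzyme was on any day, against 12.3%, 11.4%, 18.4% and 17.9% of all tested genes. The only fatty acid gene shorter than the median of all tested genes was Fads2, and the 9 longer ones had median changes of 1.39, 1.11, 1.61 and 1.39. Among genes longer than that median, the 7 sterol enzymes had a day 10 median of 1.30 and the 9 fatty acid genes of 1.61, against 0.65 for all longer genes.

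**Figure D3:**
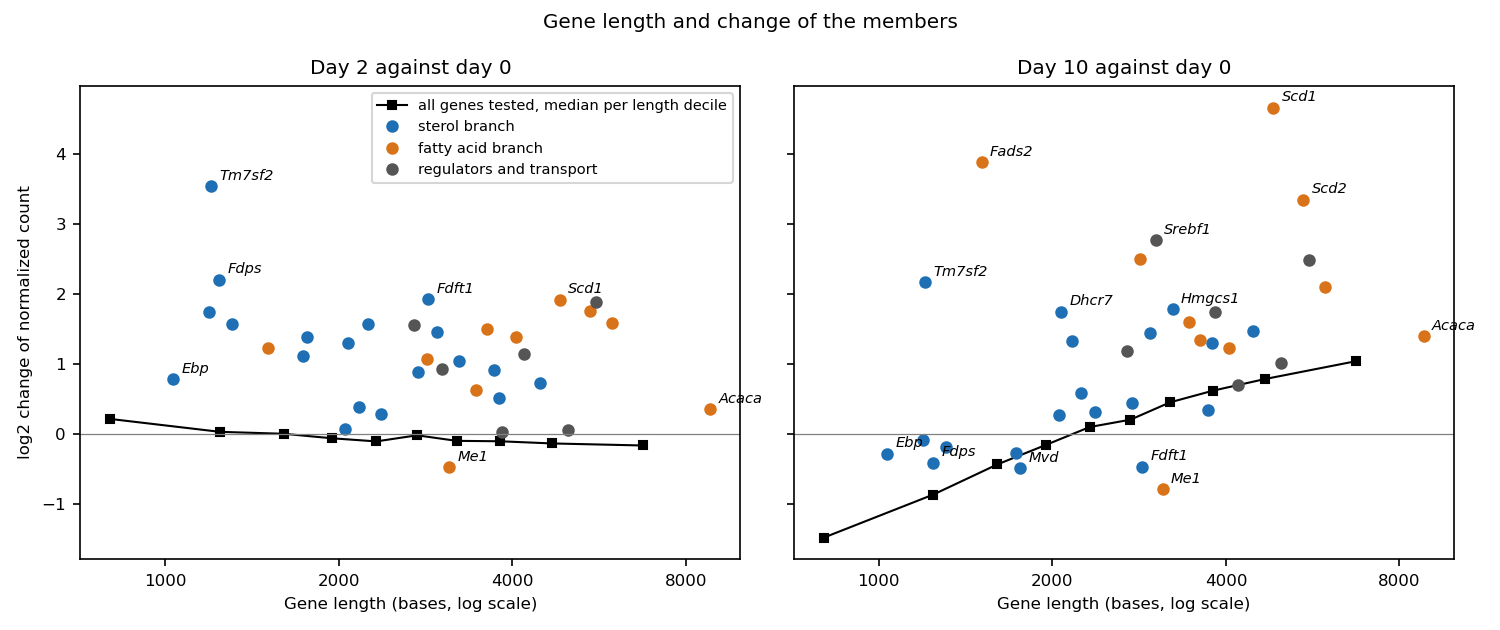
Gene length (bases, log scale) and log2 change from day 0 on day 2 (left) and day 10 (right), with the 35 members as coloured points and the median of all tested genes in each length decile as black squares. The squares run from -1.47 to 1.04 on day 10, and Scd1, Scd2, Fads2 and Tm7sf2 lie far above them.

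**Figure D4:**
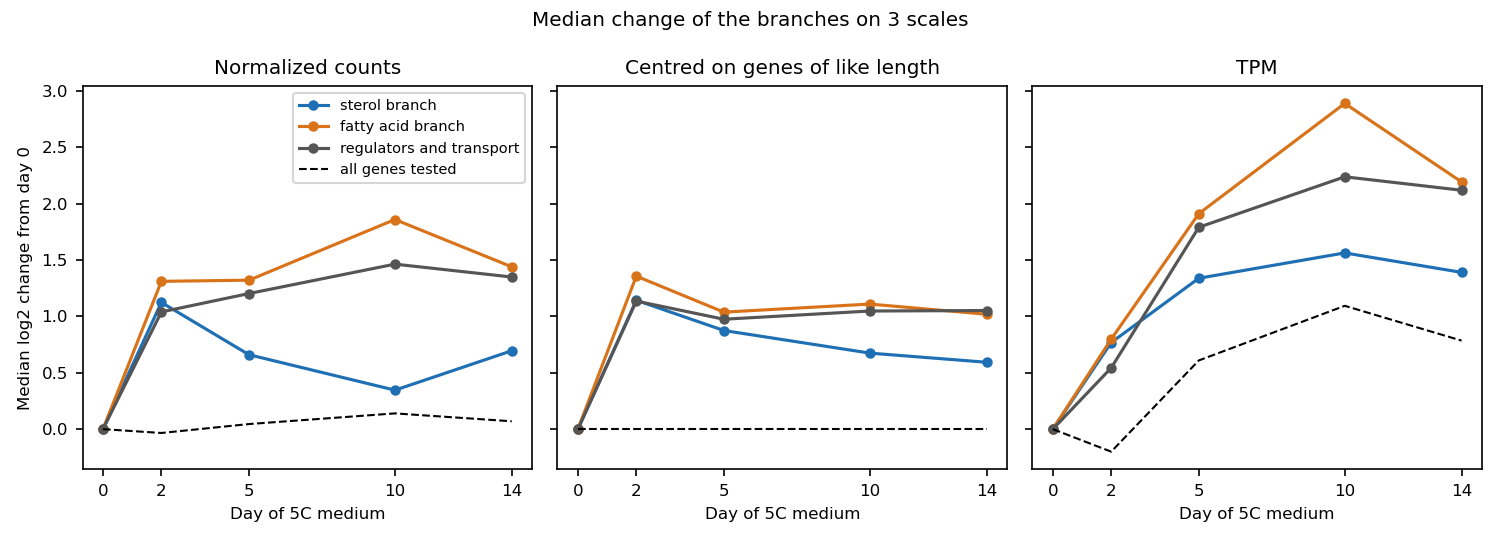
Median log2 change from day 0 by day for the 19 sterol enzymes, the 10 fatty acid genes and the 6 genes of regulation and transport, with the median of all tested genes (dashed), as normalized counts (left), centred on genes of like length (middle) and as TPM (right). The sterol line is below the fatty acid line on each later day in all panels, by 1.51 on day 10 at left and by 0.43 in the middle.

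The genes of regulation and transport had median changes of 1.04, 1.20, 1.46 and 1.35 on days 2, 5, 10 and 14, with 3, 5, 5 and 5 of 6 over 2-fold higher, against 15.2%, 20.2%, 28.7% and 24.5% of all tested genes. After length centring the numbers were 4, 3, 3 and 3 of 6, against 15.9%, 18.6%, 23.8% and 22.3%, and the call ended for Scap on day 5, Stard4 on days 5 and 14, Insig1 on day 10 and Srebf2 on days 10 and 14. The gene of the SREBP of the fatty acid branch and that of the sterol branch differed. Srebf1 gave 212, 405, 770.0, 1451 and 1260.3 normalized counts, with changes of 0.93 (95% interval 0.65 to 1.21) on day 2, 1.85 on day 5, 2.77 (95% interval 2.57 to 2.98) on day 10 and 2.56 (95% interval 2.36 to 2.78) on day 14. Centred on genes of like length, its changes were 1.02, 1.61, 2.31 and 2.28. Srebf2 gave 379, 394, 564, 772 and 789, with changes of 0.06 (95% interval -0.19 to 0.30) on day 2, 0.57 on day 5, 1.02 (95% interval 0.86 to 1.20) on day 10 and 1.06 (95% interval 0.88 to 1.24) on day 14. Its centred changes were 0.19, 0.23, 0.23 and 0.60, all under 2-fold. On day 2, when 10 of the 19 sterol enzymes were highest, the count of Srebf2 was within counting error of day 0, and its TPM change was -0.20, equal to the all-gene TPM median. These values measure the RNA and not the processing of the protein in the membrane. Up to 109 exon bases of Srebf1 are shared with Rai1 on the opposite strand, which gave 105, 54.3, 97.1, 169 and 113 normalized counts, and the counts per gene do not separate SREBP-1a from SREBP-1c.

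Scap, the escort of both SREBPs, gave 215, 478, 469.9, 350.3 and 346 normalized counts and was over 2-fold higher on days 2 and 5. Insig1, which retains Scap and is itself a known SREBP target, gave 233, 687, 526, 532 and 660.5, with changes of 1.56 (95% interval 1.32 to 1.80) on day 2 and 1.50 (95% interval 1.29 to 1.72) on day 14. Both had their highest normalized count on day 2, as had 10 of the sterol enzymes, but for neither gene was this peak clear of counting error. Scap on day 5 differed from day 2 by -0.02 (95% interval -0.24 to 0.19). Insig1 on day 14 differed from day 2 by -0.06 (95% interval -0.24 to 0.12). Stard4, a carrier of cholesterol between membranes, gave 57.0, 58.2, 136, 193 and 132, with a change of 0.03 (95% interval -0.66 to 0.66) on day 2 and 1.74 (95% interval 1.33 to 2.18) on day 10. Lpin1, a phosphatidate phosphatase of triglyceride synthesis that also acts in the nucleus, gave 33.6, 127, 186, 194 and 134, with changes of 1.88 (95% interval 1.30 to 2.55) on day 2, 2.44 on day 5, 2.49 (95% interval 2.01 to 3.08) on day 10 and 1.96 (95% interval 1.45 to 2.58) on day 14. Stard4 was over 2-fold higher on days 5, 10 and 14, whereas Lpin1 was over 2-fold higher on all 4 later days.

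Levels between genes were compared as TPM. On day 0 Fdps was the highest of the 35 at 199 TPM and Fasn ranked next at 119 TPM, while Scd1 ranked 25 at 13.5 TPM. Fdps stayed highest on days 2 and 5, at 768 and 530.0 TPM. On days 10 and 14 Scd2 was highest, at 1478 and 710.1 TPM, and Scd1 ranked 2, at 776 and 512 TPM. Fads2 moved from rank 26 on day 0 to rank 3 on day 10, and Srebf1 from rank 18 to rank 4. In TPM the fatty acid branch summed to 346, 547, 1394, 3677 and 2353, below the sterol sum on days 0, 2 and 5 and above it on days 10 and 14. The lowest members were Lpin1 on day 0, Acss2 on day 2 and Ggps1 on days 5, 10 and 14.

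Neighbouring genes of the pathway were taken from lists drawn up by function, with earlier results of these data known. Each list had a smaller median than the 35 members together on each day. On day 10 the sterol branch median of 0.35 lay below those of the other SREBP regulators (0.64) and other fatty acid and triglyceride genes (0.41). The lists' counts of higher genes are read against 15.2%, 20.2%, 28.7% and 24.5% of all tested genes on days 2, 5, 10 and 14. Those of lower genes are read against 13.1%, 13.6%, 22.3% and 19.9%. Of 9 other regulators of SREBP processing, 2, 2, 3 and 3 were over 2-fold higher on days 2, 5, 10 and 14, with a median change of -0.31, 0.31, 0.64 and 0.68. Among them Mbtps1, the site-1 protease that cleaves SREBPs in the Golgi, gave 251, 507, 635, 890.5 and 746 normalized counts and Nr1h3, the liver X receptor alpha that acts on the Srebf1 gene, gave 7.92, 21.7, 37.6, 42.8 and 54.5. Aup1, a protein of lipid droplets and of endoplasmic reticulum degradation, was over 2-fold lower on days 5, 10 and 14, with 1129, 823, 361, 194 and 274. Of 12 other genes of sterol and isoprenoid metabolism, among them genes of esterification, transport, oxysterol formation and side branches, 0, 1, 0 and 0 were over 2-fold higher and 1, 0, 1 and 1 lower, with a median change of 0.15, 0.11, -0.30 and -0.21. The higher gene was Cyp27a1, a sterol hydroxylase with 4.95 normalized counts on day 0 and 16.6 on day 5, which was the lower one on day 14, and Pdss1, of coenzyme Q synthesis, was the lower one on days 2 and 10. Of 17 other genes of fatty acid and triglyceride metabolism, 2, 4, 6 and 6 were over 2-fold higher and 1, 0, 1 and 0 lower, with a median change of 0.43, 0.29, 0.41 and 0.29. The largest changes of that list on day 14 were those of the acyl-CoA synthetases Acsl3, with 26.7, 73.3, 232, 442 and 467 normalized counts, and Acsl1, with 40.6, 16.3, 49.9, 325 and 358. Of 7 genes of citrate and NADPH supply, Slc25a1, Pgd and Idh1 were over 2-fold higher on day 2, and Idh1, the cytosolic isocitrate dehydrogenase, gave 231, 481, 613, 811 and 607.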

How the data were processed

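RNA of MEFs was measured in 5 libraries, 1 per day, which were grouped by the day in their labels. The authors deposited expected counts (RSEM estimates of each gene's reads, not scaled for depth), TPM values, which are divided by gene length and scaled to a fixed sum, and FPKM values, used for no result. The submitters' processing notes name Bowtie, RSEM and mm10. Their versions, the annotation and the strand setting are not given in the sources used here. Libraries were made from total RNA with a TruSeq RNA kit.

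Expected counts were rounded for library sizes by the TMM method (edgeR 4.0.16, R 4.3.3), and normalized counts are expected counts divided by these and rescaled to a common size. Symbols and coordinates came from GENCODE M21 (GRCm38), which matched 27247 of 27729 genes. Sums of 2253748 to 3890334 counts set the precision. Changes of single genes carry exact Clopper-Pearson 95% intervals of the ratio of rounded counts, computed in Python 3.11.15 with scipy 1.17.1. Reads carry no molecular identifiers, so the intervals cover counting error only. No test was possible with 1 library per day, and p-values are not given. Gene length is the mean of the deposited lengths over the 5 libraries, and length centring used 10 bins of equal gene number. The calculations were tested on simulated data.

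The members, their branches and the other lists were chosen with earlier results of these data known. Given in full are the members with the largest change on day 2 or day 14 in their branch (up to 4 higher and 4 lower, with at least 50 expected counts in any library) and the 6 genes of regulation and transport. From other lists, the 2 largest rises and falls on day 14 past 2-fold were eligible. Alternatives were DESeq2 size factors (version 1.42.0), TPM, a pseudocount of 5, no filter or a filter in every library, a 4-fold threshold, length centring and moving 4 regulators into the branches. Library sizes without Gm42418 were added after seeing the data.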

Additional observations from a re-analysis of the deposited data

How the results depend on the processing

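The branch medians and their difference on the 4 later days (12 values) moved by less than the counting error of a typical member with DESeq2 size factors, a pseudocount of 5, no filter, a filter of 10 expected counts in every library and library sizes without Gm42418, the last of which was chosen after seeing the data. None changed sign under any alternative, but the difference on day 2, and on day 5 after length centring, was itself smaller than that error. With TPM the sterol medians were 0.77, 1.34, 1.56 and 1.39 and the fatty acid medians 0.80, 1.91, 2.89 and 2.19 on days 2, 5, 10 and 14, against all-gene medians of -0.20, 0.61, 1.09 and 0.78. With centring on length deciles the fatty acid medians were 1.04, 1.11 and 1.02 on days 5, 10 and 14, the sterol median was 0.67 on day 10 and the difference -0.16 on day 5 and -0.43 on day 10. The centring removes the median change of genes of like length by construction. With Srebf1 and Lpin1 added to the fatty acid branch, and Insig1 and Stard4 to the sterol branch, the fatty acid medians were 1.68, 2.30 and 1.72 on days 5, 10 and 14, because members changed. The cause of the TPM differences was not tested. A 4-fold threshold moved 7 of 8 counts of higher genes and TPM moved 4 of 8 by over 1.5 times, to the values given with the branches; the TPM count of fatty acid genes on day 2 was 4. No paired analysis was possible because there is 1 library per day, and for the same reason no library could be left out of a group. Depth limits Ggps1, Acss2, Stard4 and Tm7sf2 most, whose intervals were the widest on day 2.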

Other observations

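The deposited gene length of 14 of the 35 members differed by over 10% between libraries. RSEM reports a gene length that is weighted by the estimated share of each isoform. Fasn had lengths of 2492, 5957, 2077, 4957 and 2557 bases on day 0 and days 2, 5, 10 and 14, and its TPM values of 119, 117, 343, 340.3 and 404 did not follow its normalized counts of 840.2, 2386, 1233, 2133 and 1596. Lss had 2906, 5565, 3016, 3723 and 3703 bases, Stard4 2547, 1743, 4855, 4926 and 5097 bases and Mvk 1316, 857, 1411, 1323 and 1624 bases. For these 4 genes the longest length was over 1.5 times the shortest. Which isoforms were present was not tested, and the counts per gene do not show it.

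Between days 10 and 14, Sqle, the sterol gene of the squalene epoxidase step, changed from 403 to 555 normalized counts, a difference of 0.46 (95% interval 0.29 to 0.63), and Pmvk from 111 to 191, a difference of 0.77 (95% interval 0.48 to 1.09). Over the same days Scd2 changed from 10193 to 6000.0, a difference of -0.76 (95% interval -0.81 to -0.72), and Elovl6 from 311 to 189, a difference of -0.72 (95% interval -0.96 to -0.48). Centred on genes of like length, the differences were 0.44 for Sqle, 0.42 for Pmvk, -0.28 for Scd2 and -0.23 for Elovl6. These genes were chosen after their values were seen, and with 1 library per day the differences have no replicate check.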
